A study of Mus musculus with 32 samples.

Results

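The 35 genes described here encode proteins of the nucleolus and of ribosome biogenesis. They were taken as a list of symbols and matched to the gene names of a mouse Agilent array, where all 35 were found among 34797 gene names. They had 51 probes, and each gene was read from the probe with the highest mean brightness. Expression was measured on 32 arrays with 2 colours. On 24 arrays a B cell or lymphoma sample in the red dye (Cy5) was compared with a common RNA pool in the green dye (Cy3), and 8 arrays compared lymphoma cells given the drug PCI-32765 with cells given its solvent, DMSO.

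The pool arrays held 9 lymphoma cell lines on 12 arrays, 6 splenic B cell samples on 9 arrays and germinal centre (GC) B cells on 3 arrays, which were counted as 1 sample. The lymphoma lines carry deletions of ATM, the kinase that responds to DNA double-strand breaks, and of CD3 epsilon, a subunit of the T cell receptor, and derive from mouse spleen. The splenic B cells came from CD3epsilonKO mice with ATM (ATMWT) or without it (ATMKO), so that all splenic samples shared the loss of CD3 epsilon. They were left untreated (1 sample of each genotype), or their B cell receptor was engaged by goat antibody to IgM at 15 ug/ml for 3, 6 or 24 h in ATMKO and for 6 h in ATMWT cells. The GC B cells came from ATMWT mice immunised with sheep red blood cells. PCI-32765, also called ibrutinib, inhibits the B cell receptor kinase BTK irreversibly. It was given at 100 nM for 1, 3, 6 or 24 h to the lymphoma lines 178119 and 28545, each time beside DMSO for the same time. For the 6 h samples the labels disagree: the titles and the treatment text give 6 h and a separate time field gives 3 h. They were taken as 6 h here, and every 6 h value of anti-IgM rests on that. The labels do not say how many mice gave a splenic sample, and each anti-IgM time has 1 sample of a genotype. The p-values therefore measure the spread between these samples and lines.

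Ribosome biogenesis starts in the nucleolus, where RNA polymerase I copies the ribosomal RNA genes into a long precursor. Small nucleolar ribonucleoproteins (snoRNPs) modify this precursor, processing complexes cut it, and assembly factors build the small and the large subunit on it. Growing cells raise this pathway, and the transcription factor MYC is a known activator of many of its genes. In resting B cells, signals through the B cell receptor start cell growth before cell division.

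The promoters of 30 of the 35 genes were found in RefSeq (build GRCm38.p6), as 250 bases before to 50 bases after the start of the gene. The E-box CACGTG, the sequence that MYC and related factors bind, was searched because the genes moved together. It reads the same on both strands. It was present in 7 of the 30 genes (23.3%), Imp4, Mybbp1a, Nle1, Pes1, Tsr1, Utp20 and Wdr43, and in 7.15% of all 32851 promoters of this length. In 6 of these 7 genes it began 3 to 41 bases after the start, and in Imp4 it lay 121 bases before it. In the bases before the start alone it was in 1 of the 30 genes and in 6.02% of all promoters. The 30 genes have 32 promoters, and a gene was counted if any of its promoters matched. Stretches of 4 of them are shown because these genes recur in the comparisons and the position of the E-box can be seen, in capitals. The stretch of Imp4 (chr1:34439679-34439828, plus strand) ends at the last base before the start. Those of Pes1 (chr11:3963915-3964004), Tsr1 (chr11:74898020-74898109) and Wdr43 (chr17:71616155-71616244), all on the plus strand, run from 60 bases before the start to 30 bases after it.
Imp4: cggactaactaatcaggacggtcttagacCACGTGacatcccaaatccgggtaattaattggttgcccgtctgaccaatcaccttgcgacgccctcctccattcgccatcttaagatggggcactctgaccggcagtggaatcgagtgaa
Pes1: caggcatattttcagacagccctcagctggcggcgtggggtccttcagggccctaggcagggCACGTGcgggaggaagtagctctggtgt
Tsr1: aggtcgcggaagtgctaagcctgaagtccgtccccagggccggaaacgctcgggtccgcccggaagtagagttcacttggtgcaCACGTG
Wdr43: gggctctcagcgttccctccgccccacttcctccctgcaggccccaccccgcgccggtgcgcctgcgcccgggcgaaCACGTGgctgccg
The ETS motif CCGGAAGT, on either strand, was present in 6 of the 30 genes (Gar1, Heatr1, Nhp2, Nip7, Polr1c and Tsr1) and in 3.89% of all promoters. In Tsr1 it spans the start, in lower case in the line above. The 10-letter palindromic motif of NRF1 was in none of the 30, and in 0.971% of all promoters. A match describes these letters only and shows no bound factor.

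On the pool arrays all 35 genes passed the filter on dim probes, and 34 were above background in the sample channel on all 22 arrays that were used. The exception was Npm3, on 20 of 22. A pair of repeat arrays was left out. The first GC array correlated at 0.0888 and 0.0893 with its repeats, which correlated at 0.983 with each other, and the first array of line 1039 correlated at 0.347 with its repeat. These arrays had 29.2% and 21.9% of probes above background, against 49.3% to 59.9% on the others. On the drug arrays 35 of 35 genes were above background on all 8 arrays, but Ncl, Nop58 and Heatr1 lacked a value on the 1 h array of line 178119, where their spots were called outliers, and left the drug fit for that reason. One drug array, line 28545 at 24 h, stood apart with 85.5% of probes above background, against 44.8% to 52.5% on the other 7. All 8 genes of a B cell marker list were above background on all arrays used. Every array had its sample in red, with no dye swapped.

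**Figure D1:**
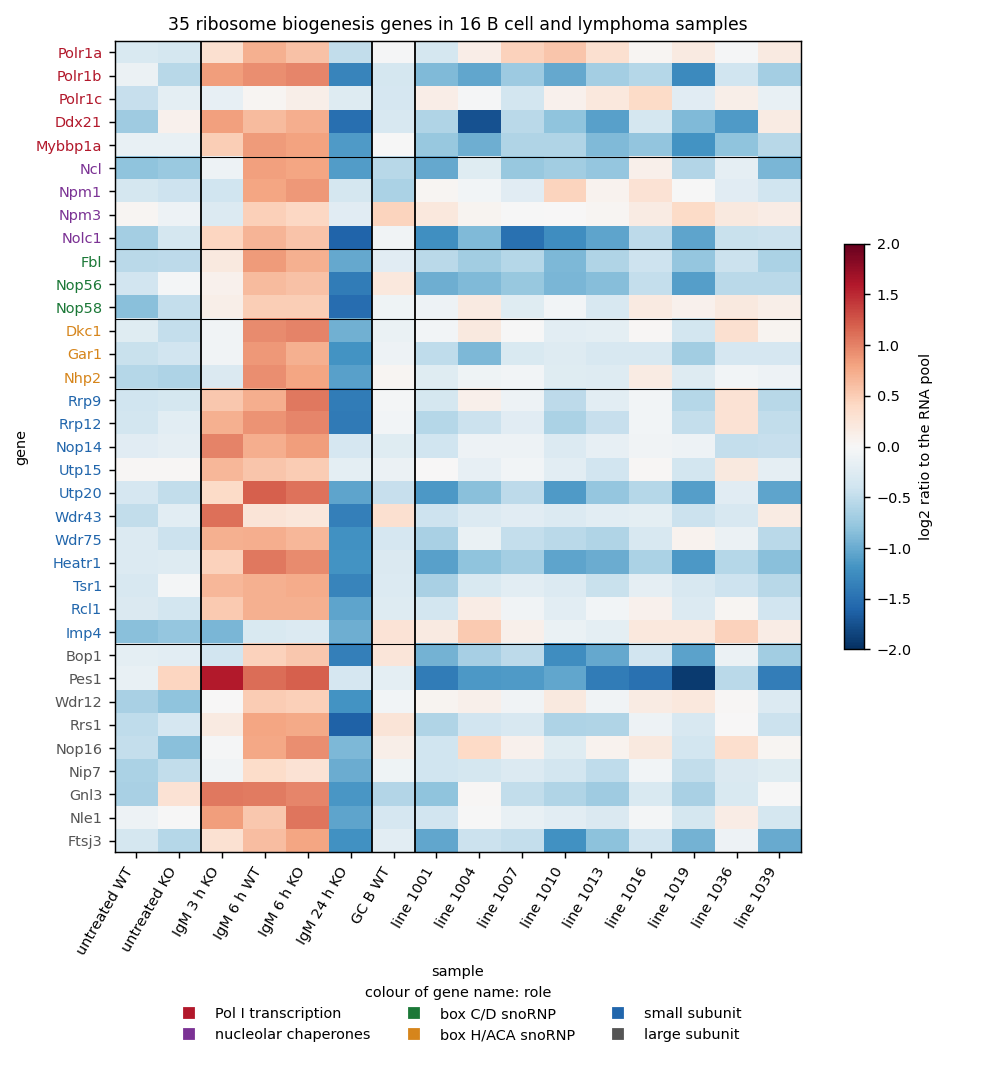
Log2 ratio of each of the 35 genes to the RNA pool (colour) in the 16 samples of the pool arrays, with genes grouped by role and samples by kind. The 6 h anti-IgM samples are above the pool for most genes, with medians of 0.72 and 0.74, and the 24 h sample is below it with a median of -1.13.

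Stimulation through the B cell receptor for 6 h raised almost the whole list. In splenic B cells of both genotypes, 34 of the 35 genes rose against untreated cells, and the median difference was 1.13 on the log2 scale. Of all 21541 genes tested, 12.4% rose, and their median difference was -0.05. All values of splenic and lymphoma samples are log2 ratios to the pool, and differences are log2 differences from limma with their standard error (SE). This fit holds 4 samples with genotype as a term and has 1 residual degree of freedom, so its spread is borrowed across genes. The count of 34 became 25 with the scanner's processed signals and 26 with the deposited series matrix. Of all genes, 2963 and 3454 passed in either direction under these settings, against 6320 in the main fit. For all 35 genes both 6 h samples lay above both untreated samples, which was not counted over all genes. Against untreated cells of the same genotype, 44.9% of all genes were higher at 6 h in ATMWT and 43.2% in ATMKO cells.

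Among the nucleolar chaperones, Ncl (nucleolin), which binds ribosomal RNA precursors, stood at -0.81 and -0.75 in untreated ATMWT and ATMKO cells and at 0.83 and 0.79 after 6 h of anti-IgM. Its 6 h samples were close to each other and far above the untreated pair, a rise of 1.59 ± 0.11 (SE, adjusted p = 0.00266). Npm1 (nucleophosmin), an abundant histone and ribosome chaperone, went from -0.36 and -0.42 to 0.79 and 0.87, a rise of 1.22 ± 0.12 (adjusted p = 0.00393). Nolc1, a snoRNP chaperone, rose by 1.13, and Npm3, a relative of Npm1, rose by 0.48.

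The enzymes that modify ribosomal RNA rose as well. Fbl (fibrillarin), the methyltransferase of the box C/D snoRNPs, stood at -0.55 and -0.53 in untreated cells and at 0.84 and 0.71 at 6 h, a rise of 1.31 ± 0.12 (adjusted p = 0.00355). Its partners Nop56 and Nop58 rose by 0.82 and 1.15. Of the box H/ACA snoRNP, which converts uridine to pseudouridine, Dkc1 (dyskerin, the enzyme) rose by 1.33 ± 0.13 (adjusted p = 0.00393) from -0.24 and -0.47 to 0.95 and 1.00. Nhp2 rose by 1.45 from -0.58 and -0.61 to 0.93 and 0.79, and Gar1 by 1.21. In these 3 genes the 6 h samples of both genotypes lay well above both untreated samples.

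Of the 5 genes around RNA polymerase I, 4 rose. Polr1b, its second largest subunit, rose by 1.29 ± 0.15, and by 0.33 by its dimmer second probe. Polr1a, the largest, rose by 0.97 and the helicase Ddx21 by 0.99. Mybbp1a, a nucleolar protein that binds MYB, rose by 0.97. Polr1c, a subunit that RNA polymerases I and III share, was the only gene of the 35 that did not pass (0.41 ± 0.12, adjusted p = 0.0573). Its untreated values were -0.46 and -0.20 and its 6 h values 0.04 and 0.12.

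All 11 genes of the small subunit pathway rose, with a median of 1.04. Utp20, a large protein of the small subunit processome, stood at -0.33 and -0.50 in untreated cells and at 1.19 and 1.09 at 6 h, a rise of 1.56 ± 0.11 (adjusted p = 0.00266). Heatr1 rose by 1.26, Rrp9 by 1.27 and Rrp12 by 1.23. The smallest rises were those of Utp15 (0.51), Imp4 (0.52) and Wdr43 (0.59). All 9 genes of the large subunit pathway rose too, with a median of 1.15. Nop16, a large subunit assembly factor, went from -0.48 and -0.83 to 0.77 and 0.94, a rise of 1.51 ± 0.16 (adjusted p = 0.00488), and Bop1, which acts in a complex with Pes1 and Wdr12, rose least (0.70).

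The response passed through a maximum. In ATMKO cells the median of the 35 genes was -0.35 untreated, 0.32 at 3 h, 0.74 at 6 h and -1.13 at 24 h. Compared with untreated ATMKO cells, 32 of 35 genes were higher at 3 h, 35 of 35 at 6 h and 1 of 35 at 24 h, where 34 were lower. Over all genes measured, 40.3%, 43.2% and 45.8% were higher at the 3 times. These are single samples with no test of their own.

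At 3 h the genes differed among themselves. Among others, Pes1 was at 1.59, Wdr43 at 1.1, Gnl3 at 1.05 and Nop14 at 0.99, as high as or higher than at 6 h, when they stood at 1.19, 0.23, 0.98 and 0.83. Imp4 (-0.92), Npm1 (-0.40), Bop1 (-0.39), Nhp2 (-0.29) and Npm3 (-0.28) were the lowest at 3 h, all below the pool. Polr1b was already at 0.84, close to its 6 h values of 0.94 and 0.98. At 24 h the lowest were Rrs1 (-1.62), Nolc1 (-1.60), Nop58 (-1.53) and Ddx21 (-1.51), and the highest were Utp15 (-0.20) and Npm3 (-0.23). Between 6 and 24 h in ATMKO cells, all 35 genes were lower at 24 h, with a median difference of -1.91, and 88.6% of them were at least 2-fold lower, against 4.67% of all genes. Between the same samples 8 of 8 erythroid markers were lower (median -1.84) and 8 of 8 B cell markers higher (median 0.95). Against untreated ATMKO cells, the 24 h sample was lower in 8 of 8 erythroid and 10 of 10 T and NK cell markers, with medians of -3.53 and -1.13. The part of these shifts in the low values at 24 h was not tested.

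The slides that carried these arrays were compared by themselves. Within each of the 3 slides that held 6 h and untreated cells of 1 genotype, all 35 genes were higher at 6 h, with medians of 1.13, 1.05 and 1.02. Within the slide that held the 24 h sample, which was of the other genotype than the untreated cells there, 33 of 35 genes were lower than in untreated cells, with a median of -0.72. Over the 4 stimulated samples together, no gene of the list passed against untreated cells, nor did any of all genes (0% of 21527 at an adjusted p of 0.05, with 1617 under an unadjusted p of 0.05, of which none was in the list). The median difference of the list was then 0.68.

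**Figure D2:**
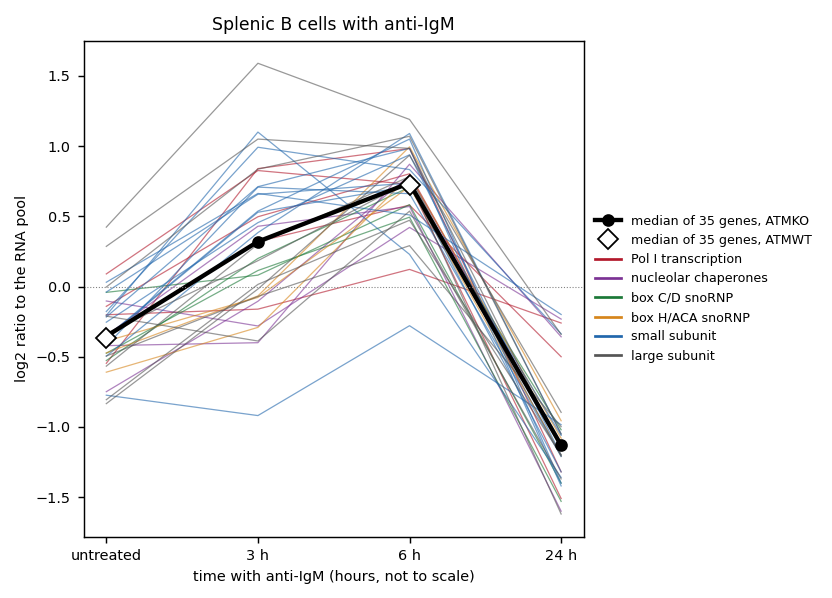
Log2 ratio to the RNA pool of the 35 genes (thin lines, coloured by role) in splenic B cells before and during anti-IgM, 1 sample at each time of a genotype. The median of the list in ATMKO cells rises from -0.35 to 0.74 at 6 h and falls to -1.13 at 24 h, and the ATMWT medians (diamonds) lie at -0.36 and 0.72.

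Other genes of the pathway went the same way, and the ribosomal proteins themselves did not. These lists too were chosen with earlier results of these data known. Of 109 further ribosome biogenesis genes tested at 6 h, 73 rose and 1 fell, with a median of 0.64. Of 78 ribosomal protein genes, none rose and 9 fell, where 3644 of all 21541 genes fell, with a median of -0.21, and 24 were under an unadjusted p of 0.05. Of 15 cell cycle genes, none rose and 11 fell, with a median of -0.64. At 24 h in ATMKO cells, 94 of 109 biogenesis genes were lower than in untreated cells and 68 of 78 ribosomal protein genes were higher, with medians of -0.53 and 0.20. Of 9 genes of the MYC network list, none rose and 3 fell at 6 h. Myc itself was at 0.44 and 1.98 in untreated ATMWT and ATMKO cells, at 0.48 at 3 h, 0.65 and 0.60 at 6 h and -1.72 at 24 h. Its untreated samples were far apart, and the 6 h difference did not pass (-0.58 ± 0.37, adjusted p = 0.301).

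Markers of other cells were high in the untreated splenic samples. The medians of the erythroid, neutrophil and macrophage, and T and NK cell lists were 0.98 to 1.89 there and -4.14 to -1.91 in GC B cells, although 12 of 12 neutrophil and macrophage markers were above background on the GC arrays too. At 6 h, 8 of 8, 10 of 12 and 10 of 10 of them fell, with medians of -1.91, -0.94 and -1.07, and so did 8 of 8 B cell markers, with a median of -1.36. Fewer cells of a type and less RNA per cell cannot be told apart in such samples. With median centring in place of loess, the median of all genes at 6 h was 0.15 and that of the list 1.53. The part of these shifts in the rise of the 35 genes was not tested.

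The BTK inhibitor lowered the same list in lymphoma cells, most at 6 h. Of the 32 genes in the drug fit, 30 fell at 6 h and none rose, with a median log2 ratio of drug to DMSO of -0.93, where 12.4% of all 17707 genes tested fell and their median was 0.01. Npm1 and Npm3 did not pass. Values of the drug arrays are log2 ratios of PCI-32765 to DMSO in the same line at the same time, with 1 array for each line and time. In a fit that kept genes with a missing value, Ncl (-1.20), Nop58 (-1.03) and Heatr1 (-1.29) fell too.

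In line 178119, 34 of 35 genes were below DMSO at 6 h, and in line 28545 it was 35 of 35, where 49.6% and 47.5% of all genes were below. A fall of at least 2-fold was seen in 18 and 16 genes, against 1.66% and 1.03% of all genes. The lines did not differ by a test: no gene of the list and none of all genes (0%) passed for the difference between them, with 1 gene of the list (Npm1) and 644 of all genes under an unadjusted p of 0.05.

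Among the large subunit factors, Gnl3 (nucleostemin), a GTPase of the nucleolus, was at -0.16, -1.31, -1.86 and -0.56 in line 178119 at 1, 3, 6 and 24 h, and at -0.02, -1.22, -1.44 and -0.42 in line 28545. Both lines were near DMSO at 1 h and lowest at 6 h, where the fall was 1.65 ± 0.12 on the log2 scale (adjusted p = 4.57e-05). Rrs1, which recruits 5S RNA to the large subunit precursor, was as low at 3 h (-1.19 and -1.22) as at 6 h (-1.22 and -1.17). Ftsj3 fell by 1.28, Bop1 by 1.18, Nle1 by 1.14 and Wdr12 by 0.91 at 6 h. Their partner Pes1 fell least of the large subunit genes, by 0.49, with -0.66 and -0.33 in the lines.

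Of the small subunit genes, all 10 tested fell at 6 h. Rrp9, a protein of the U3 snoRNP, was at -0.17, -0.59, -1.32 and -0.16 in line 178119 and at 0.40, -0.77, -1.58 and -0.22 in line 28545. Its 6 h values were far below all others, with a fall of 1.45 ± 0.14 (adjusted p = 0.000133). Utp20 was still near DMSO at 3 h (-0.27 and -0.28) and at -1.39 and -1.24 at 6 h, a fall of 1.32 ± 0.10 (adjusted p = 5.97e-05). Rcl1 fell by 1.17, Tsr1 by 1.08, and Imp4 least, by 0.49.

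The RNA polymerase I genes moved at different times. Polr1b was at -0.04 and 0.03 at 1 h, at -1.60 and -1.36 at 3 h, at -1.19 and -1.01 at 6 h and at -0.78 and -0.49 at 24 h in lines 178119 and 28545. It was lowest at 3 h in both lines, with a fall of 1.48 ± 0.11 (adjusted p = 7.03e-05). Polr1a, the catalytic partner, did not pass at 3 h (-0.32 ± 0.10, adjusted p = 0.0916) and fell by 0.96 at 6 h. Mybbp1a was at -0.25 and -0.22 at 3 h, without passing, and fell by 0.94 at 6 h.

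The snoRNP and chaperone genes split. Nolc1 was at 0.34, -0.72, -1.85 and -0.80 in line 178119 and at -0.02, -0.91, -1.55 and -0.41 in line 28545, and its fall of 1.70 ± 0.13 at 6 h (adjusted p = 5.99e-05) was the largest of the list. Ncl had no value at 1 h in line 178119 and was otherwise at -0.53, -1.21 and -0.61 there, and at 0.04, -0.45, -1.18 and -0.63 in line 28545. Fbl had the largest fall at 24 h of the 32 genes (0.73), with -0.79 in line 178119 and -0.67 in line 28545. The H/ACA genes Dkc1, Gar1 and Nhp2 fell by 0.87, 0.85 and 0.55 at 6 h, while none of the 3 passed at 3 h. By the probes used, Npm1 and Npm3 were nearest to DMSO of the 32 genes at 6 h. Npm1 was at -0.38 and -0.14 (-0.26 ± 0.26, adjusted p = 0.519) and Npm3 at 0.03 and -0.29. The probe of Npm1 was saturated on 1 array. Its dimmer probes with a value gave 0.12, -0.30 and -0.71 at 6 h, so the size of its change depends on the probe. Npm1 also had the widest gap between the lines, with -1.18 in line 178119 and 0.36 in line 28545 at 1 h.

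**Figure D3:**
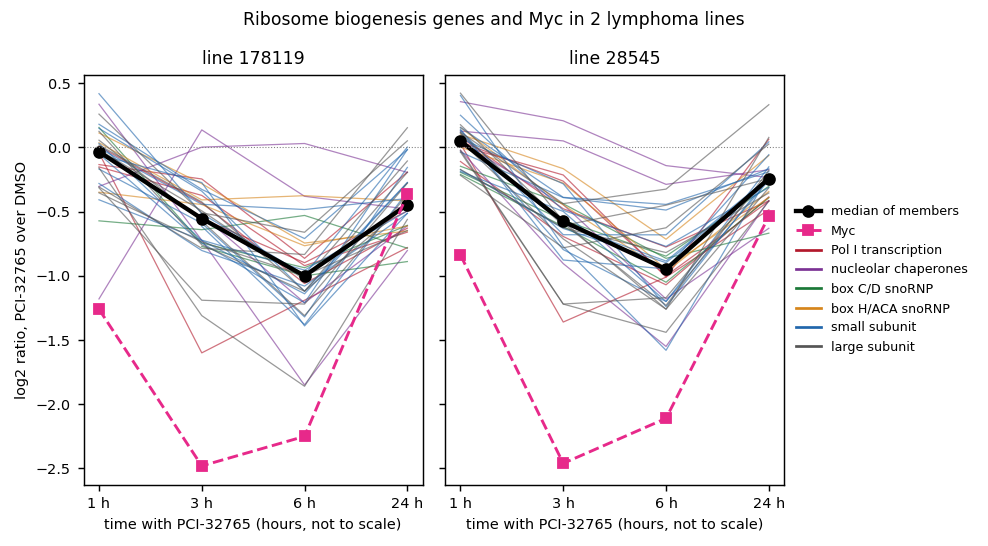
Log2 ratio of PCI-32765 to DMSO of the 35 genes (thin lines, coloured by role), their median (black) and Myc (dashed) at 1, 3, 6 and 24 h in 2 lymphoma lines. The median is lowest at 6 h in both lines (-1.0 and -0.95), and Myc is lowest at 3 h (-2.48 and -2.46); with median centring in place of loess the median over the list lies above 0 at 1, 3 and 24 h and below it at 6 h.

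The course in time was alike in the 2 lines. The median of the list was -0.03 and 0.05 at 1 h, -0.55 and -0.58 at 3 h, -1.0 and -0.95 at 6 h and -0.45 and -0.24 at 24 h. Both lines were below DMSO in 33 of 35 genes at 3 h, 34 of 35 at 6 h and 30 of 35 at 24 h, against 7 of the 32 genes with both values at 1 h. On single arrays 44.8% to 55.6% of all genes were below DMSO, and the share below in both lines was not counted. The sign of the list at 3 and 24 h depends on loess, as given below. No gene of the list passed at 1 h, when 0.102% of all genes did and 4 genes of the list were under an unadjusted p of 0.05. At 3 h 23 of 32 fell (4.21% of all genes fell), with 5 without the 3 h array of line 178119 and 3 without that of line 28545, and at 24 h 14 of 32 (12.1%). As the mean of the 4 times, 29 of 32 fell (15.8%), and Pes1, Npm1 and Npm3 did not pass. Between 6 and 24 h, 31 of 35 genes moved up towards DMSO in line 178119 and 34 of 35 in line 28545, whose 24 h array stood apart in its share of probes above background. The share of all genes that moved up was not counted.

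The counts at 24 h differed by role, and the sign of the list at this time depends on loess, as given below for median centring. At 24 h 4 of the 5 RNA polymerase I genes (all but Mybbp1a), both box C/D genes tested and 2 of 3 H/ACA genes fell. Of the subunit assembly genes, 2 of 10 for the small subunit (Wdr75 and Utp20) and 3 of 9 for the large one (Wdr12, Gnl3 and Ftsj3) did, and of the chaperones 1 of 3 (Nolc1). The difference between these roles was not tested. The count at 24 h was 0 without the array of line 178119 and 14 without that of line 28545, the array that stood apart.

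Because no dye was swapped, a constant offset between the dyes would enter each ratio, and the times were therefore also set against the 1 h arrays, where it cancels. At 6 h 29 of 32 genes were lower than at 1 h (8.88% of all genes fell), with a median difference of -0.90, and it was 18 without the 6 h array of line 178119. At 3 h 5 of 32 passed, Polr1b, Gnl3, Rrs1, Tsr1 and Rcl1 (0.35% of all genes fell), with a median of -0.54, and none did without either 3 h array or without the 1 h array of line 178119. At 24 h 3 of 32 passed, Nolc1, Polr1b and Gar1 (3.75%), with a median of -0.31, and none did without either 1 h array, either 3 h array or the 24 h array of line 178119. With cell line as a block, which pairs the arrays, Polr1b alone passed at 24 h minus 1 h. With median centring in place of loess, the median of all genes tested stood at 0.24 to 0.60 at the 4 times. The list then stood at 0.87, 0.32, -0.56 and 0.10 at 1, 3, 6 and 24 h, so that its sign turned at 3 and 24 h. Relative to all genes it was 0.27 higher at 1 h and 0.27, 0.80 and 0.21 lower at the later times.

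Of the other 99 biogenesis genes tested, none rose and 47 fell at 3 h, and 1 rose and 74 fell at 6 h with a median of -0.67. At 24 h 1 rose and 28 fell. Of the ribosomal protein genes 4 had values on all drug arrays and entered the fit, too few to describe by it. On the 24 h arrays 69 of 78 were above DMSO in line 178119 and 68 in line 28545, with medians of 0.67 and 0.71. Of all genes, 45.9% and 55.6% were below DMSO on these arrays. On the other drug arrays the median of the ribosomal protein genes with a value was 0.11 to 0.83. These values were not tested. Of 9 cell cycle genes, 3 rose at 6 h and 7 fell at 24 h. Myc fell at 1 h, when no gene of the list passed, at -1.26 and -0.84 in the lines (-1.05 ± 0.12, adjusted p = 0.00639). It was at -2.48 and -2.46 at 3 h, at -2.25 and -2.11 at 6 h and at -0.36 and -0.54 at 24 h. Of 6 B cell markers, 1 rose at 6 h and 4 rose at 24 h.

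The opposite changes at 6 h met in the same genes. The anti-IgM and drug arrays share no sample. Of the 32 genes tested in both fits, 31 rose with anti-IgM and 30 fell with PCI-32765. Of these, 29 did both, which is 93.5% of those that rose and 96.7% of those that fell. An overlap of 29 is the smallest that these counts allow, so it adds nothing to them. Of all 17351 genes tested in both, 988 did both, 45.4% of those that rose and 45.3% of those that fell. Of the 99 further biogenesis genes it was 62.

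**Figure D4:**
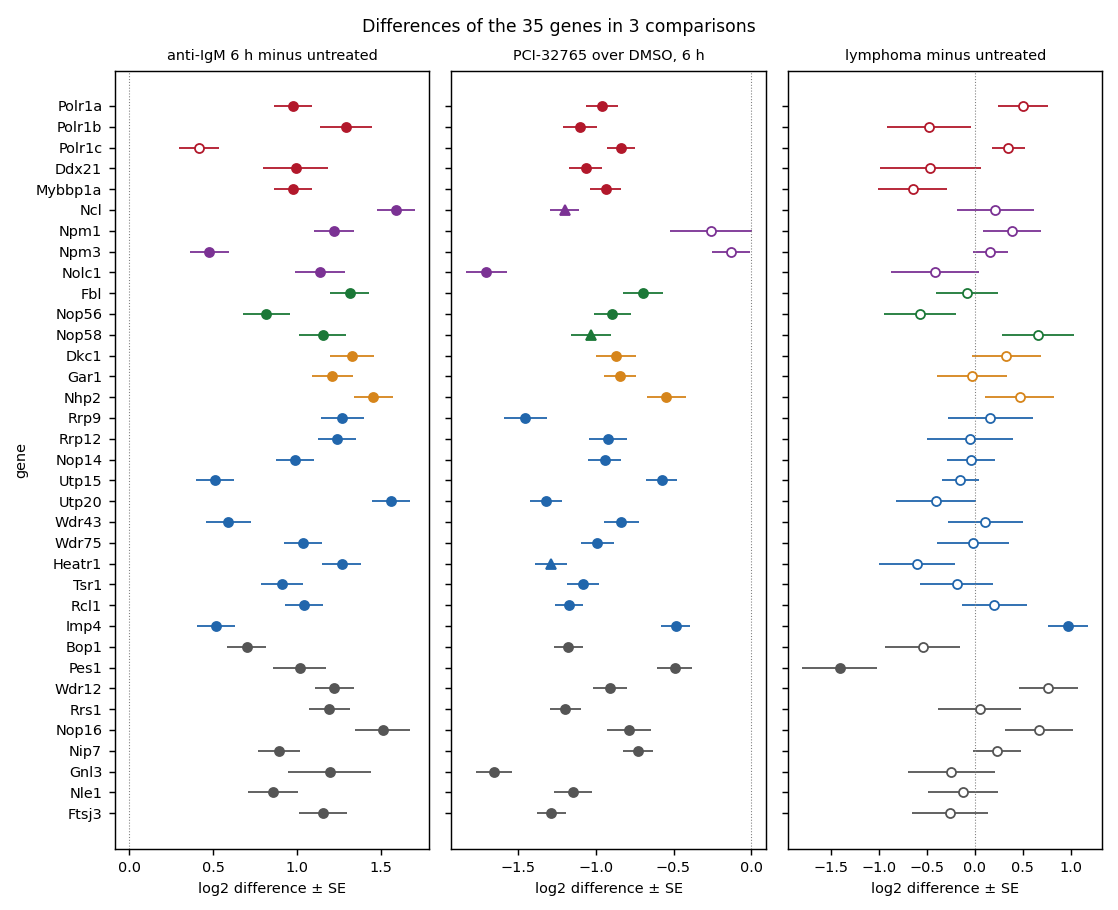
Log2 differences with SE of the 35 genes in the anti-IgM 6 h, PCI-32765 6 h and lymphoma comparisons, filled where the adjusted p was under 0.05. Triangles mark Ncl, Nop58 and Heatr1, fitted without the 1 h array of line 178119. Nearly all genes lie to the right in the first panel and to the left in the second, and they lie on both sides of 0 in the third.

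The untreated lymphoma lines did not share the high level of B cells stimulated for 6 h. Set against untreated splenic B cells, the list had a median difference of -0.03 (0.04 with median centring), with 1 gene higher and 1 lower, where 36.7% of all 21353 genes tested passed in either direction. This fit of 16 samples has 12 residual degrees of freedom. Imp4, a protein of the U3 snoRNP, was the gene that rose. In the 9 lines it was at -0.20 (lowest), 0.18 (median) and 0.52 (highest), in untreated cells at -0.84 and -0.77, and the groups did not overlap. Its difference was 0.97 ± 0.21 (adjusted p = 0.00196).

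Pes1, of the complex with Bop1 and Wdr12, fell by 1.41 ± 0.39 (adjusted p = 0.0105). It was between -1.92 and -0.54 in the lines, with a median of -1.39, and at -0.15 and 0.42 in untreated cells. This rests on 1 probe, since the dimmer second probe of Pes1 gave 0.36 for the same difference. For lymphoma minus stimulated the brightest probe gave -2.16 and the second -0.51. The probes were closer in the treatment comparisons, with 1.01 and 1.12 at 6 h of anti-IgM and -0.49 and -0.57 at 6 h of the drug.

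In 5 of the 35 genes all lines lay above both untreated samples (Imp4, Nop58, Wdr12, Nhp2 and Nop16), and in 4 all lay below (Pes1, Nop56, Heatr1 and Mybbp1a). The share of all genes that do so was not counted, so these counts have no background beside them. For Wdr12 the brightest probe gave a difference of 0.77 and the second probe 0.11. The anti-IgM samples take part in the spread of this fit as 1 group, so their differences in time enter it. With only the 2 groups compared, 9 genes passed, 5 higher and 4 lower, and without the 24 h anti-IgM sample it was 8. Of all genes, 8827 and 8283 passed in these 2 fits. Over the same comparison 12 of 15 cell cycle genes rose, with a median of 1.70, so that the lines were far above untreated cells in those genes and not in these. Of 106 further biogenesis genes, 8 rose and 4 fell. Myc fell by 2.58 ± 0.50 (adjusted p = 0.000956), and was between -1.85 and -1.03 in the lines. Of the markers of other cells, 8 of 8 erythroid, 12 of 12 neutrophil and macrophage and 7 of 10 T and NK cell markers fell in the lines, with list medians of the log2 ratio of -4.16 to -0.81 in the lines and 0.98 to 1.89 in untreated cells. Their part in this comparison was not tested.

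Against anti-IgM-stimulated cells of all times, 12 of 35 genes were lower and 1, Imp4, was higher, with a median of -0.53, where 25.2% of all genes fell. The lower ones were Pes1 (-2.16, and -0.51 by its second probe), Utp20 (-1.23), Heatr1 (-1.18), Polr1b (-1.17), Mybbp1a (-1.05), Nolc1 (-0.95), Gnl3, Ftsj3, Fbl, Nop14, Nop56 and Utp15. The stimulated group spans the maximum and the low at 24 h. By the median of the list, the 24 h sample (-1.13) lay below all 9 lines (-0.52 to -0.07). Against the 6 h samples alone 32 genes were lower and 1 higher, and without the 24 h sample 29 were lower. Of all genes, 9509 and 9739 passed in either direction in these 2 fits. Without the ATMWT or the ATMKO 6 h sample, 6 were lower. In 33 of 35 genes all 9 lines lay below both 6 h samples, the others being Polr1c and Imp4. The share of all genes for which this holds was not counted. Heatr1 may serve as an example: the lines ran from -1.15 to -0.56 with a median of -0.84, and the 6 h samples stood at 1.06 and 0.94.

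The GC B cells were 1 sample, so the SE and p of its comparisons come from the spread within the other groups and assume that GC B cells vary like them. No gene of the list passed for lymphoma minus GC, where 15.4% of all genes did, and 2 were lower with only the 2 groups in the fit. No gene of the list was under an unadjusted p of 0.05 either. In the lines 25 of 35 genes were lower, with a median of -0.18, and of -0.48 with median centring, which is 0.31 below all genes. The largest differences were those of Pes1 (-1.08 ± 0.53), Bop1 (-0.99) and Nop56 (-0.99). Against untreated cells the GC sample was higher in Imp4 (0.27 against -0.84 and -0.77, a rise of 1.08 ± 0.33, adjusted p = 0.034), the only gene of the list that passed, where 17% of all genes did, and it did not pass without either untreated sample.

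**Figure D5:**
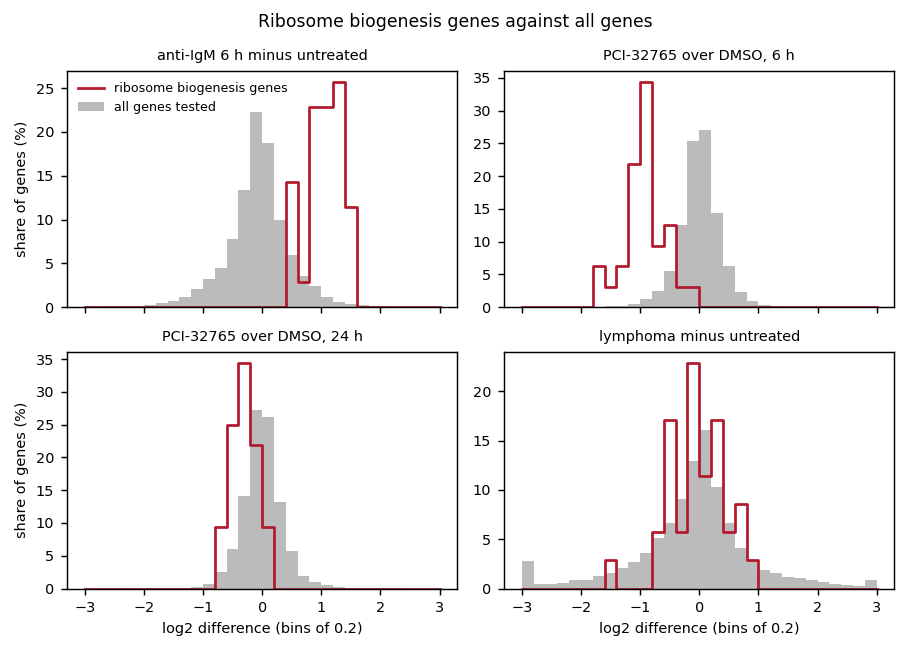
Share of genes (%) in bins of 0.2 of the log2 difference, for all genes tested (grey bars) and the ribosome biogenesis genes (red line) in 4 comparisons; the outer bins hold all values beyond 3. The red line lies apart from the bars at 6 h of anti-IgM and of PCI-32765, with medians of 1.13 and -0.93, and over them for lymphoma minus untreated (-0.03). At 24 h of PCI-32765 the median is -0.34, and 0.10 with median centring in place of loess.

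The 9 lines differed among themselves about as much in these genes as in others. The standard deviation over the lines had a median of 0.22 in the list and of 0.24 over all genes. Ddx21 varied most (SD 0.54), from -1.74 in line 1004 to 0.17 in line 1039, followed by Nolc1 (0.39), Ncl, Pes1, Ftsj3 and Bop1. Npm3 varied least (0.12). By the median of the list, line 1016 (-0.07) and line 1036 (-0.12) were highest, with 13 of 35 genes above the pool in each, and line 1001 (-0.52) was lowest, with 6. Myc ran from -1.85 in line 1001 to -1.03 in line 1016, and line 1039, with Myc at -1.06, had a list median of -0.40.

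Probes of the same gene mostly moved in the same direction, with gaps in size. The 12 genes with more than 1 probe had 16 further probes. All 16 went the same way as the brightest at 6 h of anti-IgM, 13 of the 15 with values did at 6 h of PCI-32765, and 12 of 16 did for lymphoma minus untreated. The second probe of Ncl, which was dimmer, gave -0.29 at 6 h of the drug where the brightest gave -1.20, and that of Nip7 gave 0.00 against -0.73. That of Polr1b gave -0.30 against -1.10 at 6 h of the drug and -1.06 against -1.48 at 3 h. At 6 h of anti-IgM it gave 0.33 against 1.29.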

How the data were processed

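The 35 genes and the other gene lists were chosen with earlier results of these data known. The deposited scanner files give spot signals and their local background as intensity, written by Agilent Feature Extraction 10.1.1.1 per the file headers, while the submitters' processing notes name version 9.1 and limma. The deposited series matrix holds log10 ratios, which equalled the scanner's own within 5e-04. For this work limma 3.58.1 under R 4.3.3 applied normexp background correction (offset 50) and loess within each array, without control and outlier spots. Each gene is its brightest probe. A probe entered a fit if 1 of the dyes was above background on a share of arrays of 0.5 or more and no sample lacked a value. Repeat arrays of a sample were averaged, after 2 arrays that correlated under 0.5 with all their repeats were left out. Pool samples were fitted with 4 class means, splenic B cells at 6 h with genotype as a term, and drug arrays with 1 mean for each time. Adjusted p-values are limma's, by the Benjamini-Hochberg method over all genes of a comparison, with a threshold of 0.05. The scripts were tested on simulated data. Full statistics were planned for up to 6 genes in each direction of a comparison, by size of change among those past the threshold, for the 3 largest where none passed, and for Myc. Other genes that are described by role were chosen after their values were seen. Drug arrays with the same replicate number are of the same cell line, which pairs them, and a fit with line as a block was an alternative. The replicate numbers of the pool arrays mark repeats and pair nothing. The comparisons with the 1 h arrays at 3 h and 6 h, the fit with missing values kept and the fits on fewer groups were added after the data were seen.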

Additional observations from a re-analysis of the deposited data

Results flagged for a closer look

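In 2 genes 1 lymphoma line lay apart from the other 8: Nhp2 in line 1016 (0.17, with the next highest line at -0.06) and Wdr43 in line 1039 (0.16, with the next at -0.20). Chance flags about 1 in 20 such groups, and 35 were examined. In the drug series the ratio at 24 h differed from that at 1 h in Gar1 (-0.58), Nolc1 (-0.77) and Polr1b (-0.63), of which Polr1b alone passed with cell line as a block.

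Under anti-IgM in ATMKO cells, the list was above untreated cells at 6 h (median 1.07) and below them at 24 h (median -0.76), and 34 of 35 genes were above at 6 h and below at 24 h. Of all genes, 43.2% were above untreated cells at 6 h and 45.8% at 24 h, and the share that changed direction was not counted. Among the genes with the largest rise at 6 h, the 24 h sample stood against untreated cells at -0.37 for Ncl, -0.55 for Utp20, -0.0617 for Nop16, -0.47 for Nhp2, -0.48 for Dkc1 and -0.49 for Fbl. Each time has 1 sample, and this difference was not tested.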

How the results depend on the processing

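With median centring in place of loess, the number of listed genes that passed was 14 for the mean of the PCI-32765 times (12 higher, 2 lower). It was 31 at 1 h (31 higher), 8 at 3 h (7 higher, 1 lower), 15 at 6 h (15 lower) and 2 at 24 h (2 higher). Of all genes, 12999 passed for the mean, and 10801, 10426, 3295 and 3975 at 1, 3, 6 and 24 h. Under this setting 1 listed gene passed for 3 h minus 1 h and 0 for GC minus untreated. Signs turned under it for the median of the list in the mean of the times (0.19), at 3 h (0.32) and at 24 h (0.10), for Nolc1 (0.0035), Wdr12 (0.0798) and Fbl (0.081) in the mean, for Npm1 (0.66) and Fbl (0.52) at 1 h, for Nolc1 (0.20), Tsr1 (0.0328) and Nip7 (0.28) at 3 h and for Gar1 (0.0514) at 24 h. Npm1 at 1 h was 0.36 without the array of line 178119. The scanner's processed signals gave 3 at 3 h, 1 at 24 h, 0 for 24 h minus 1 h, 0 for 3 h minus 1 h and 12 for 6 h minus 1 h, and the series matrix gave 10 at 3 h and 0 for both 24 h and 3 h minus 1 h. An offset of 10 gave 0 for both of these. The mean of all probes gave 1 for lymphoma minus untreated and 8 for 3 h minus 1 h, and all repeat arrays together gave 0 for GC minus untreated. Lymphoma minus untreated gave 0, 0 and 1 within slides 2, 3 and 4 and 9 with only the 2 groups, lymphoma minus stimulated gave 1 and 20 within slides 2 and 4 and 33 with the 6 h samples only, lymphoma minus GC gave 2 with only the 2 groups, and GC minus untreated gave 0 within slide 4. With cell line as a replicate block, 24 h minus 1 h gave 1, and the counts were 22, 30 and 15 at 3, 6 and 24 h. Leaving out 1 sample gave 1 to 8 genes for lymphoma minus untreated, 7 to 30 for lymphoma minus stimulated, 0 to 2 for lymphoma minus GC, 0 to 1 for GC minus untreated, 28 to 32 for the mean of the times, 0 to 1 at 1 h, 3 to 26 at 3 h (5 and 3 without a 3 h array), 26 to 33 at 6 h, 0 to 18 at 24 h, 0 to 3 for 24 h minus 1 h, 0 to 4 for 3 h minus 1 h and 18 to 29 for 6 h minus 1 h. For 6 h of anti-IgM the scanner's processed signals gave 25, the series matrix 26 and median centring 35. The 6 h anti-IgM fit has 1 residual degree of freedom, so leaving out a sample or a slide block could not be fitted. The number of arrays limits the precision throughout.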
